A study of Mus musculus with 10 samples.

Results

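Aminoacyl-tRNA synthetases join each amino acid to its matching transfer RNA (tRNA), the step that supplies the ribosome with charged tRNAs. The genes described here are 36 mouse synthetase genes out of 35275 genes in the count table. They were taken by symbol, spelled as the table spells them. Symbols ending in 2, other than Tarsl2, were taken as mitochondrial, which gave 21 cytosolic and 15 mitochondrial genes. The rule reads the symbol alone. Lars2, the mitochondrial leucine enzyme, is not among them.

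The 10 libraries are from retinas of C57BL/6 mice 10 to 12 weeks old, 5 after vigabatrin and 5 after vehicle. Vigabatrin blocks GABA transaminase and is used against epilepsy; here it was delivered at 140 mg/kg/day for 11 days by a subcutaneous osmotic pump. The control libraries carry the treatment label vehicle, although their titles call them untreated. Each library is called by its group and its title number. Since no label ties a library to an animal of its own, p-values speak only of the spread among these 10 libraries, which may be technical.

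Animal cells keep a cytosolic set of synthetases for nuclear-encoded protein synthesis and a separate set for translation inside mitochondria, and both sets are encoded in the nucleus. Kars and Gars, the lysine and glycine enzymes, each serve both compartments from 1 gene. Mitochondria have no glutamine enzyme of their own and form glutaminyl-tRNA by another route. Several cytosolic enzymes sit together with scaffold proteins in the multisynthetase complex. Many cytosolic synthetase genes are targets of ATF4, a transcription factor made when amino acid shortage or other stress activates a kinase of the initiation factor eIF2.

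Total counts per library ranged from 36056135 (vehicle 2345) to 54052502 (vigabatrin 2429), and 17435 genes, including all 36 synthetase genes, passed the filter on low counts. A synthetase gene had between 207 and 13107 counts in a library, and together they took 0.207% to 0.224% of all counts. Rod photoreceptor markers summed to between 74500 and 81500 CPM, the counts scaled to a common library size, after vigabatrin and between 75200 and 82900 CPM in vehicle, with all 18 detected in every library. Lens markers took 2.24% and 1.98% of counts in vigabatrin 2344 and vigabatrin 2429, and 2.17% and 1.48% in vehicle 835 and vehicle 1582. They took at most 0.134% in any other library. Of 20 lens markers, 3 were at 0 in at least 1 library and 0 were at 0 in all. Pigment epithelium and choroid markers summed to between 21.6 and 785 CPM after vigabatrin and between 50.7 and 1780 CPM in vehicle, with the highest value in vehicle 835. Of these 16 markers, 15 were lower after vigabatrin, with a median log2 fold change of -1.041. At an unadjusted p under 0.05, 4 of them were lower, where 3.69% of all genes tested were. Only 1 of all genes tested passed the threshold, an adjusted p under 0.05, on the higher side (0.00574%) and 0 passed on the lower side. It is not a synthetase gene.

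Levels were compared between genes as RPKM, which is CPM divided by the deposited gene length in kilobases. The cytosolic genes lay higher than the mitochondrial ones, with a median over genes of 21.4 against 5.0, beside 5.88 over all genes tested. All of the highest 10 genes were cytosolic and 9 of the lowest 10 were mitochondrial. Nars, the asparagine enzyme, stood first at 61.3 ± 1.73 RPKM after vigabatrin and 63.2 ± 1.16 in vehicle (SD, n = 5 each). Nars2, its mitochondrial counterpart, stood last at 1.75 ± 0.122 after vigabatrin and 1.56 ± 0.162 in vehicle. The plot of levels by gene shows this order with every library.

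**Figure D1:**
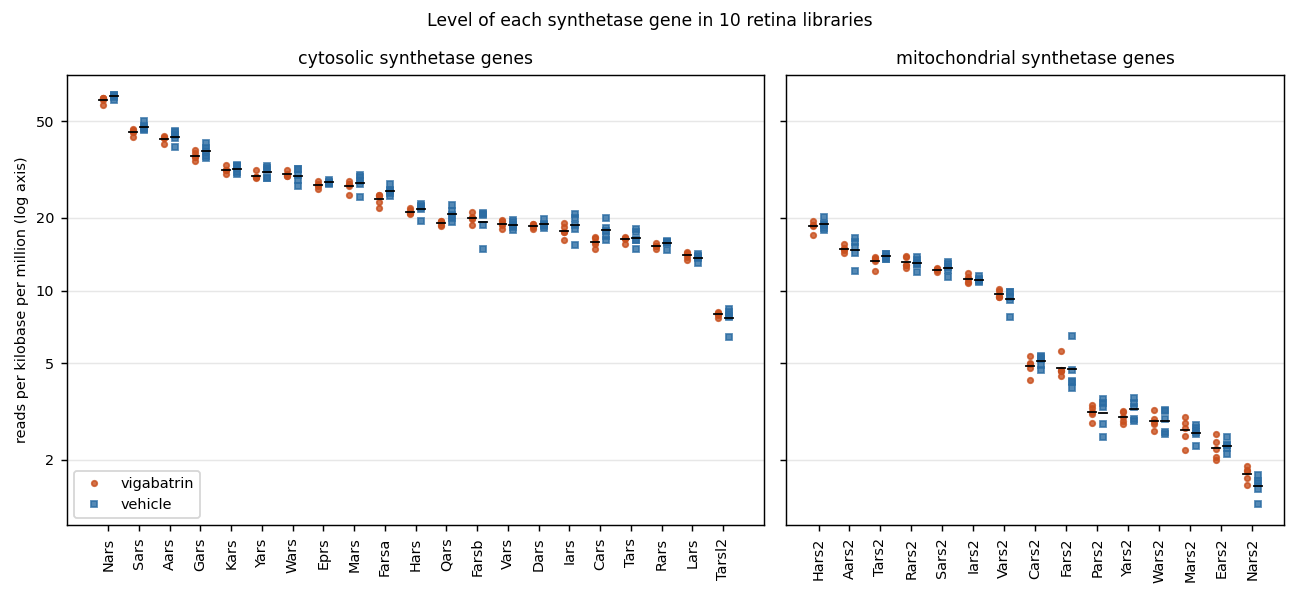
Level of each synthetase gene in RPKM, on deposited gene lengths (log axis), in 5 vigabatrin libraries (circles) and 5 vehicle libraries (squares), with cytosolic genes in the left panel and mitochondrial genes in the right. Bars are group means. The cytosolic genes run from Nars at 62.2 to Tarsl2 at 7.86 and the mitochondrial genes from Hars2 at 18.6 to Nars2 at 1.65 (means over 10 libraries), and the groups overlap for every gene.

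In every sentence that lists 10 values, vigabatrin libraries come in the order 2344, 2347, 2349, 2428 and 2429 and vehicle libraries in the order 832, 835, 1580, 1582 and 2345. Among the 3 highest cytosolic genes, Nars had 58.4, 62.5, 62.1, 62.4 and 61.0 RPKM after vigabatrin and 63.9, 63.7, 63.0, 64.1 and 61.3 in vehicle. Sars, the serine enzyme, had levels of 46.1, 45.0, 46.2, 45.0 and 43.2 after vigabatrin and 46.9, 46.0, 50.3, 47.7 and 46.5 in vehicle. Aars, the alanine enzyme, had levels of 42.7, 43.0, 43.5, 42.5 and 40.3 after vigabatrin and 43.8, 45.1, 42.6, 39.0 and 45.5 in vehicle. Each of these genes kept a narrow range, and its groups overlapped. At the lower end of the cytosolic set, Rars, the arginine enzyme of the multisynthetase complex, had levels of 15.3, 14.9, 15.7, 15.2 and 15.3 after vigabatrin and 16.0, 15.7, 14.7, 15.9 and 15.9 in vehicle. Lars, the leucine enzyme of that complex, had levels of 14.4, 14.3, 13.4, 13.8 and 14.1 after vigabatrin and 14.1, 13, 13.9, 13.7 and 13.6 in vehicle. Tarsl2, a second cytosolic threonine enzyme, had levels of 8.10, 8.16, 7.92, 7.73 and 7.99 after vigabatrin and 7.84, 6.46, 8.19, 7.77 and 8.43 in vehicle. Vehicle 835 was the lowest library of all 10 for both Lars and Tarsl2, and the groups again overlapped.

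The highest mitochondrial genes lay in the lower part of the cytosolic range. Hars2, the histidine enzyme, had 17.0, 18.5, 18.7, 19.3 and 18.6 RPKM after vigabatrin and 18.9, 18.6, 20.2, 18.2 and 17.8 in vehicle. Aars2, the mitochondrial alanine enzyme, had levels of 14.3, 14.7, 15, 15.5 and 14.9 after vigabatrin and 15.1, 12.0, 16.4, 14.3 and 15.9 in vehicle. Tars2, the mitochondrial threonine enzyme, had levels of 12.0, 13.3, 13.6, 13.7 and 13.5 after vigabatrin and 14.2, 13.5, 14.2, 13.7 and 13.5 in vehicle. Vigabatrin 2344 was the lowest library of its group for all of them. At the bottom, Mars2, the methionine enzyme, had levels of 2.19, 2.51, 2.84, 3.0 and 2.70 after vigabatrin and 2.60, 2.28, 2.56, 2.70 and 2.78 in vehicle. Ears2, the glutamate enzyme, had levels of 2.06, 1.99, 2.21, 2.38 and 2.57 after vigabatrin and 2.23, 2.31, 2.12, 2.31 and 2.48 in vehicle. Nars2 had levels of 1.57, 1.81, 1.80, 1.89 and 1.68 after vigabatrin and 1.74, 1.31, 1.63, 1.60 and 1.51 in vehicle. Mars2 and Nars2 each had the highest value in vigabatrin 2428 and Ears2 in vigabatrin 2429, while the groups overlapped.

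Much of the order between neighbours was not resolved. Of 35 neighbouring pairs in the order of levels, 17 differed by less than 1 SD of the libraries and 10 by more than 2 SD, and 10 pairs had the same order in all 10 libraries. Between libraries the coefficient of variation ran from 2.49% for Eprs, which charges both glutamate and proline, to 15.8% for Fars2, the mitochondrial phenylalanine enzyme. Its median was 4.7% for cytosolic and 8.0% for mitochondrial genes, which also had fewer counts. The order depends on the gene length used. With the length of the transcript holding the longest coding sequence, a choice made after the data were seen, Sars came first at 88.4 and Nars followed at 59.6, Farsa had 45.5 in place of 24.9, and Nars2 was still last at 1.65. The deposited length was within 3 bases of that transcript's for 21 of the 36 genes.

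For 16 pairs that charge the same amino acid in the 2 compartments, the cytosolic gene was higher per kilobase in all 10 libraries. Eprs entered 2 of these pairs, against Ears2 for glutamate and Pars2 for proline, and Fars2 entered 2, against the subunits Farsa and Farsb. The asparagine pair was the widest: Nars was 35.1-fold above Nars2 after vigabatrin and 40.8-fold above it in vehicle. Eprs was 12.2-fold above Ears2 in both groups, and Mars was 10.2-fold above Mars2 after vigabatrin and 10.8-fold in vehicle. Wars, the tryptophan enzyme, was 10.5-fold above Wars2 after vigabatrin and 10.3-fold in vehicle. Yars, the tyrosine enzyme, was 9.90-fold above Yars2 after vigabatrin and 9.54-fold in vehicle. The closest pairs were Hars over Hars2, at 1.15-fold after vigabatrin and 1.16-fold in vehicle, Rars over Rars2, at 1.17-fold after vigabatrin and 1.21-fold in vehicle, and Tars over Tars2, at 1.23-fold after vigabatrin and 1.19-fold in vehicle. With the length of the longest coding transcript the threonine pair turned round, with Tars at 0.578 of Tars2 over all libraries, and the cytosolic gene was higher in the other 15 pairs. That length also set Eprs over Ears2 at 5.03-fold, Wars over Wars2 at 16.3-fold, Yars over Yars2 at 5.44-fold and Sars over Sars2 at 7.02-fold.

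The drug groups overlapped in the ratio of every pair, so 0 of 16 pairs separated them. For the asparagine pair, the log2 ratio of Nars2 to Nars averaged -5.13 ± 0.06 after vigabatrin and -5.35 ± 0.15 in vehicle (SD, n = 5 each). That difference of 0.22 was the widest of the pairs, with a range of -5.21 to -5.05 after vigabatrin and -5.61 to -5.20 in vehicle. The mitochondrial share was higher after vigabatrin in 12 pairs and lower in 4. These ratios were not tested.

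**Figure D2:**
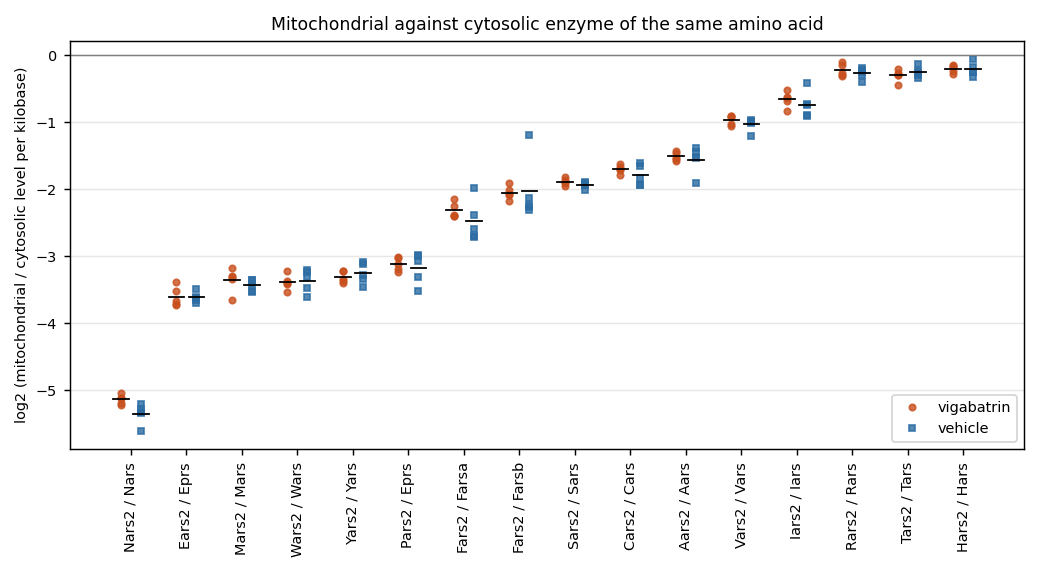
Log2 ratio of the mitochondrial to the cytosolic gene of the same amino acid, per kilobase of deposited gene length, in each vigabatrin library (circles) and vehicle library (squares), with bars at group means. All 16 pairs lie below 0 in all 10 libraries, from -5.13 after vigabatrin and -5.35 in vehicle for Nars2 over Nars to -0.20 after vigabatrin and -0.21 in vehicle for Hars2 over Hars.

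No synthetase gene passed the test between vigabatrin and vehicle. The smallest adjusted p over the 36 genes was 0.603 (edgeR quasi-likelihood test), and the 2 groups of libraries overlapped for all 36, where 1.48% of all genes tested did not overlap (0.631% lower and 0.849% higher after vigabatrin). Means after vigabatrin were higher for 13 genes and lower for 23, with a median log2 fold change of -0.025 beside -0.001 over all genes tested, of which 50.6% were lower. At an unadjusted p under 0.05, 3 synthetase genes were lower and 0 were higher, where 3.69% of all genes tested were lower and 3.68% higher at that level, 7.36% in all. Those 3, Cars, Qars and Farsa, are cytosolic. In RNA from whole retina, fewer cells of a type and less RNA per cell cannot be told apart.

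Cars, the cytosolic cysteine enzyme (ENSMUSG00000010755, chr7:143557230-143600090, minus strand, mm10), had 53.0, 47.8, 53.3, 50.4 and 51.0 CPM after vigabatrin and 64.4, 58.2, 56.8, 51.8 and 54.0 CPM in vehicle. The vigabatrin libraries lay low and close together, and of the vehicle libraries only 1582 lay among them. Its means were 51.1 ± 2.24 CPM after vigabatrin and 57.0 ± 4.81 CPM in vehicle (SD, n = 5 each), a log2 fold change of -0.16 with a standard error of 0.06 and a 95% interval of -0.29 to -0.03 (edgeR, adjusted p = 0.603). Qars, the glutamine enzyme of the multisynthetase complex (ENSMUSG00000032604, chr9:108508005-108515941, plus strand), had 58.9, 59.6, 56.3, 59.1 and 57.0 CPM after vigabatrin and 64.9, 61.0, 69.2, 62.4 and 58.6 CPM in vehicle. Only vehicle 2345 lay inside the vigabatrin range. Qars averaged 58.2 ± 1.45 CPM after vigabatrin and 63.2 ± 4.07 CPM in vehicle (SD, n = 5 each), with a log2 fold change of -0.12, a standard error of 0.05 and an interval of -0.22 to -0.02 (edgeR, adjusted p = 0.611). Farsa, the catalytic subunit of the phenylalanine enzyme (ENSMUSG00000003808, chr8:84856989-84869257, plus strand), had 73.4, 83.0, 81.9, 82.6 and 77.9 CPM after vigabatrin and 84.5, 86.1, 92.0, 81.7 and 86.9 CPM in vehicle. Vehicle 1582 was the 1 vehicle library below the highest vigabatrin library. Means of Farsa were 79.8 ± 4.09 CPM after vigabatrin and 86.3 ± 3.79 CPM in vehicle (SD, n = 5 each), with a log2 fold change of -0.11 and a standard error of 0.04 (edgeR, adjusted p = 0.611). Farsb, the other subunit of that enzyme, had a log2 fold change of 0.06 with a standard error of 0.09.

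The range of the title numbers moves with the groups, since all 5 vigabatrin libraries and only vehicle 2345 are numbered above 2000. With that range as a term, the difference between groups rests on vehicle 2345, the only vehicle library in the range of the vigabatrin libraries. In that fit Cars had a log2 fold change of -0.079, Qars -0.011 and Farsa -0.125. The part of the number range in these values was not tested further, and what the numbers stand for is not given in the labels. Without the 4 libraries rich in lens transcripts, Cars had -0.21, Qars -0.141 and Farsa -0.09.

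Of the next genes by p, Sars had 165, 161, 165, 160 and 154 CPM after vigabatrin and 167, 164, 180, 170 and 166 CPM in vehicle. All vehicle libraries except 835 lay above every vigabatrin library, and the log2 fold change was -0.07 (SE 0.03, edgeR adjusted p = 0.689). Nars2 had 5.95, 6.83, 6.79, 7.13 and 6.37 CPM after vigabatrin and 6.57, 4.94, 6.18, 6.04 and 5.71 CPM in vehicle. It had the largest difference of all 36 genes, a log2 fold change of 0.17 with a standard error of 0.09 and an interval of -0.03 to 0.37 (edgeR, adjusted p = 0.733). Vehicle 835 was its lowest library, and without it the log2 fold change was 0.11. Tars2 had 39.8, 44.1, 45.1, 45.4 and 45.0 CPM after vigabatrin and 47.0, 44.8, 47.1, 45.4 and 44.7 CPM in vehicle, with vigabatrin 2344 apart on the low side. Nars had 154, 165, 163, 164 and 160 CPM after vigabatrin and 168, 168, 166, 169 and 161 CPM in vehicle, again with vigabatrin 2344 lowest. Gars had 81.9, 90.9, 88.6, 84.9 and 84.6 CPM after vigabatrin and 93.0, 90.3, 85.9, 84.2 and 97.3 CPM in vehicle, so that the groups overlapped widely. The log2 fold changes were -0.06 for Tars2, -0.04 for Nars and -0.06 for Gars, each with an adjusted p of at least 0.797 (edgeR).

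In the fit with group as the only term, the intervals were narrow. They take no account of the title number range, which nearly separates the groups. With that range as a term Gars had a log2 fold change of -0.175, beside its interval of -0.17 to 0.04. The log2 fold change was smaller than 0.1 in size for 31 of the 36 genes, and their 95% intervals lay within a 1.1-fold change in either direction for 14 genes and within 1.2-fold for 32. The exceptions at 1.2-fold were Cars, Fars2, Nars2 and Yars2, and all 36 lay within 1.5-fold. The median standard error was 0.047 for the synthetase genes and 0.088 for all genes tested.

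**Figure D3:**
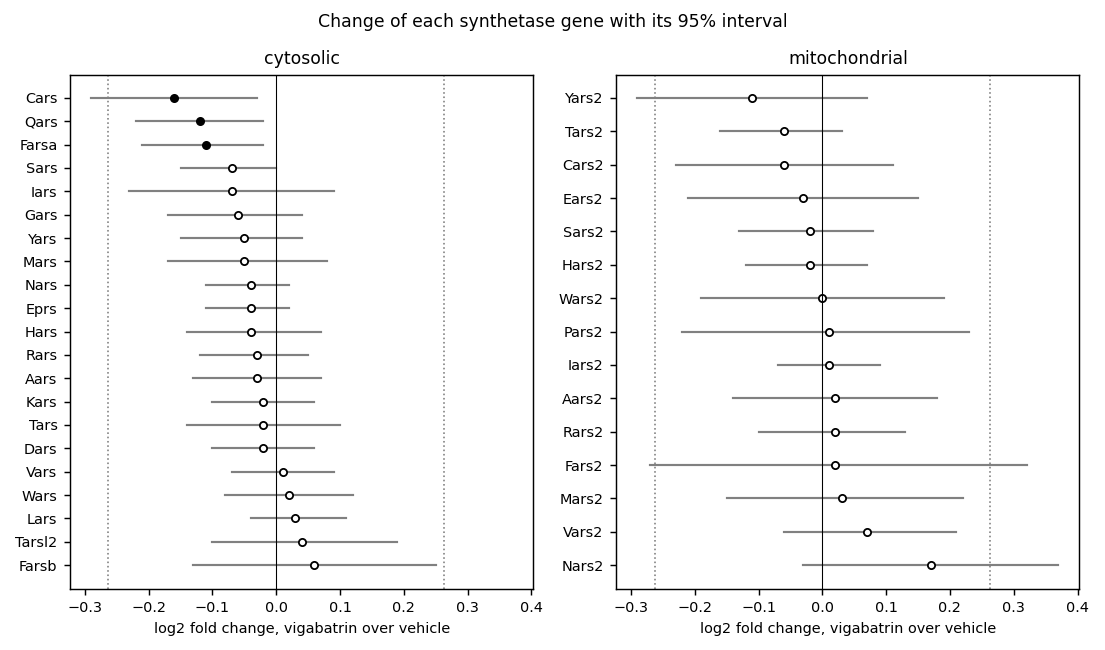
Log2 fold change of vigabatrin over vehicle for each cytosolic gene (left) and mitochondrial gene (right), with bars for its 95% interval from the edgeR fit and dotted lines at a 1.2-fold change. Filled points are Cars (-0.16), Qars (-0.12) and Farsa (-0.11), whose unadjusted p was under 0.05, and the intervals of 32 genes stay between the dotted lines, those of Cars, Fars2, Nars2 and Yars2 excepted.

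By compartment, 16 of 21 cytosolic genes were lower after vigabatrin and 5 were higher, with a median log2 fold change of -0.036 and a range of -0.16 to 0.06. The mitochondrial genes were divided, 7 lower and 8 higher, with a median of 0.006 and a range of -0.11 to 0.17. Summed over the cytosolic genes, the level was 1730 ± 25.1 CPM after vigabatrin and 1780 ± 50.3 CPM in vehicle. Over the mitochondrial genes the sum was 404 ± 11.4 CPM after vigabatrin and 404 ± 12.2 CPM in vehicle (SD, n = 5 each). Over the alternative settings the cytosolic median stayed between -0.061 and -0.023, and the mitochondrial median lay between -0.023 and 0.019. Another scaling moved the median of all genes to 0.012 at most. Marker lists of cell types went different ways. All 18 lens markers tested were higher after vigabatrin, with a median log2 fold change of 0.306 and a median standard error of 1.588. Other retinal neuron and glia markers were divided, 10 higher and 11 lower, with a median of -0.012. Of 10 microglia and blood markers 7 were lower and 3 higher, with a median of -0.144. Of 18 rod markers 13 were lower and 5 higher, with a median of -0.07. Sag, the rod arrestin, was among the lower ones at -0.21 (edgeR, adjusted p = 0.311), and its groups did not overlap. Of 9 cornea markers 5 were tested and all 5 were lower. At an unadjusted p under 0.05, 3 of them were lower, where 3.69% of all genes tested were. Those 3 had few counts, with means after vigabatrin and in vehicle of 0.188 and 0.539 CPM for Krt12, 0.359 and 1.72 for Krt5, and 0.463 and 2.54 for Krt15. Of the 9 markers, 4 were at 0 in at least 1 library. The sums of the list were 1.16 to 34.9 CPM after vigabatrin and 1.47 to 41.3 CPM in vehicle. The part of these cells in the synthetase values was not tested. By catalytic fold, class I had 10 of 17 genes lower with a median of -0.03 and class II had 12 of 18 lower with a median of -0.023, leaving out Eprs, which holds a domain of each class.

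The 8 enzymes of the multisynthetase complex were Dars, Eprs, Iars, Kars, Lars, Mars, Qars and Rars. Of these, 7 were lower after vigabatrin and 1, Lars, was higher, with a median log2 fold change of -0.038. Outside the complex 9 of 13 cytosolic genes were lower, with a median of -0.036, close to that of the complex. The complex members of smallest p after Qars were Eprs (log2 fold change -0.04, SE 0.03), Lars (0.03, SE 0.04) and Rars (-0.03, SE 0.04). Its 3 scaffold genes were all lower: Aimp1 had a log2 fold change of -0.07, Eef1e1 -0.11 and Aimp2 -0.01, with a smallest adjusted p of 0.693 (edgeR). Aimp1 had 29.3, 29.3, 28.5, 28.5 and 29.3 CPM after vigabatrin and 30.9, 31.0, 31.0, 30.7 and 29.0 CPM in vehicle, where vehicle 2345 was the 1 library inside the vigabatrin range.

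Among the 13 cytosolic genes listed as ATF4 targets, 10 were lower and 3 higher after vigabatrin, with a median log2 fold change of -0.045. Of the other 8 cytosolic genes 6 were lower, with a median of -0.028. Promoters were read to show where the core of the element bound by ATF4 with C/EBP proteins, TGATGNAA, lies in these genes. Windows of 300 bases, from 250 before to 50 after the start of the gene, came from RefSeq on GRCm38.p6, and 27 of the 36 genes had one. The motif was sought on both strands, so its reverse complement TTNCATCA counts as well. It stood in 5 of the 27, which were 5 of the 8 ATF4-listed cytosolic genes with a window, against 0 of 6 other cytosolic and 0 of 13 mitochondrial genes. Over all RefSeq windows it stood in 3.97%, and in at least 1 window of 4.51% of genes. The 5 windows are printed with the match in capitals, read along the strand of the gene:
Aars promoter, chr8:111033592-111033891, plus strand: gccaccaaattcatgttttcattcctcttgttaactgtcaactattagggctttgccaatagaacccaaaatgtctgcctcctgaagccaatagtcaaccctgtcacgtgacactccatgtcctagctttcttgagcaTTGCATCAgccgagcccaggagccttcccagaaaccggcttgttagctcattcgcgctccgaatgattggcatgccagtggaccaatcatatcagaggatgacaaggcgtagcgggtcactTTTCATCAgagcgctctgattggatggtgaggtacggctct
Gars promoter, chr6:55037751-55038050, plus strand: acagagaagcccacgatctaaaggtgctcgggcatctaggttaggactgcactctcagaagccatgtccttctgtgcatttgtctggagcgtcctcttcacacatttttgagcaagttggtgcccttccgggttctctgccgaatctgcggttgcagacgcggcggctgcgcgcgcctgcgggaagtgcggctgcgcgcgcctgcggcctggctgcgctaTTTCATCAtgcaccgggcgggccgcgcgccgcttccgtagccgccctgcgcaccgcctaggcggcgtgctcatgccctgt
Iars promoter, chr13:49681880-49682179, plus strand: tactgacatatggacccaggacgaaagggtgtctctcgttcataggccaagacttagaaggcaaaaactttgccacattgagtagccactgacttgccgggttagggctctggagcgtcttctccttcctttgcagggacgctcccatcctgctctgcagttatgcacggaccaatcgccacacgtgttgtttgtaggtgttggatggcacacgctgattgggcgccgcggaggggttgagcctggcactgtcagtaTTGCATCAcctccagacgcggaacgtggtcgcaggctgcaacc
Tars promoter, chr15:11399609-11399908, minus strand: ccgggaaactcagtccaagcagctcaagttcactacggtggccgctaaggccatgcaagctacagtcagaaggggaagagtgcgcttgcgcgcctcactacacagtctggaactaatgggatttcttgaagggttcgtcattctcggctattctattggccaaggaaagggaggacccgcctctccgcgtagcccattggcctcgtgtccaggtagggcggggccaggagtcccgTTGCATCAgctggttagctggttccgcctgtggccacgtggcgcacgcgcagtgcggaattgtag
Yars promoter, chr4:129189653-129189952, plus strand: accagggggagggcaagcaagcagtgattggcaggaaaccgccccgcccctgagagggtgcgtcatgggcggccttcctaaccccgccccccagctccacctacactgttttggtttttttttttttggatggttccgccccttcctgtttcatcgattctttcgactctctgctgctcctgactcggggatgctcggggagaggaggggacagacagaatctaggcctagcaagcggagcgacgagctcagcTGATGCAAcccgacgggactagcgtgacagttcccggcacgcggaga
Aars held 2 matches and the other genes 1 each. The match began at position 7 of Iars and position 3 of Yars counted from the start, and at -15 in Tars, -30 in Gars and -112 in Aars, where the first of its matches lies. A match describes these letters and does not show that ATF4 binds there in retina. The 5 genes had log2 fold changes of -0.03 for Aars, -0.06 for Gars, -0.07 for Iars, -0.02 for Tars and -0.05 for Yars, with standard errors between 0.04 and 0.07.

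Other genes of the amino acid response, 23 in all, had 20 lower and 3 higher means after vigabatrin and a median log2 fold change of -0.083, and 0 passed the test. At an unadjusted p under 0.05, 3 of the 23 were lower and 0 higher, where 3.69% of all genes tested were lower and 3.68% higher. Atf4 had 141, 165, 162, 164 and 149 CPM after vigabatrin and 173, 204, 189, 199 and 160 CPM in vehicle, with vehicle 2345 the 1 library inside the vigabatrin range. Its means were 156 ± 10.7 CPM after vigabatrin and 185 ± 18.3 CPM in vehicle (SD, n = 5 each), a log2 fold change of -0.24 with a standard error of 0.07 (edgeR, adjusted p = 0.501). Chac1, which encodes an enzyme that degrades glutathione, averaged 3.09 ± 0.195 CPM after vigabatrin and 4.24 ± 0.825 CPM in vehicle (SD, n = 5 each), a log2 fold change of -0.45 with a standard error of 0.13. Ddit4, an inhibitor of mTORC1 signalling, averaged 152 ± 10.2 CPM after vigabatrin and 169 ± 13.8 CPM in vehicle (SD, n = 5 each), with a log2 fold change of -0.15. Asns, the asparagine synthetase of amino acid supply, had -0.06 and Ddit3 -0.08. The widest log2 fold changes of the list, -0.63 for Cebpb and -0.53 for Slc7a1, a carrier of basic amino acids, rested on vehicle 835. Slc7a1 had 112 CPM there and 30.5 to 40.6 CPM in the other vehicle libraries, and Cebpb 7.51 CPM there and 2.25 to 3.05 CPM in the others. Without that library, a setting tried on this list after its values were seen, Slc7a1 had -0.01 and Cebpb -0.165, and 16 of the 23 genes were lower with a median of -0.063. Without the 4 lens-rich libraries 16 were lower with a median of -0.061, and Atf4 had -0.087. A term for the title numbers sets the vigabatrin libraries against vehicle 2345 alone. With that term 10 were lower and 13 higher, with a median of 0.046, and Atf4 had -0.035. Leaving out 1 library at a time, Atf4 had -0.293 to -0.206. Pigment epithelium markers were also highest in vehicle 835. With lens and pigment epithelium levels as terms, 18 of the 23 genes were lower and 5 higher, with a median of -0.061. In that fit Atf4 had -0.229, Cebpb -0.426 and Slc7a1 -0.268. The part of these tissues in this list was not tested further.

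The eIF2 kinases and their partners, upstream of ATF4, had 4 higher and 2 lower genes of 6 with a median of 0.005. Impact, an inhibitor of the kinase GCN2, had a log2 fold change of 0.13 (SE 0.07), Eif2ak3, which encodes PERK, -0.07 (SE 0.04), and Eif2ak4, which encodes GCN2, 0.01 (SE 0.04). Of 13 genes that charge or mature mitochondrial tRNAs, 7 were higher and 6 lower with a median of 0.004. Elac2, which trims the 3′ ends of tRNA precursors, had -0.08 (SE 0.04) there, and Mtfmt, which formylates the mitochondrial initiator tRNA, 0.06 (SE 0.07). Proofreading and peptidyl-tRNA release had 5 of 6 genes lower with a median of -0.03, selenocysteine tRNA and decoding 4 of 5 lower with -0.059, and tRNA export and elongation factors 3 of 11 lower with 0.018. Dtd2, of the proofreading list, had 0.10 (SE 0.08) and Trnau1ap, a selenocysteine tRNA binding protein, -0.07 (SE 0.04). Eef1a2, which carries charged tRNA to the ribosome in neurons and muscle, had 0.07 (SE 0.05). All of these lists had 0 genes past the threshold.

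**Figure D4:**
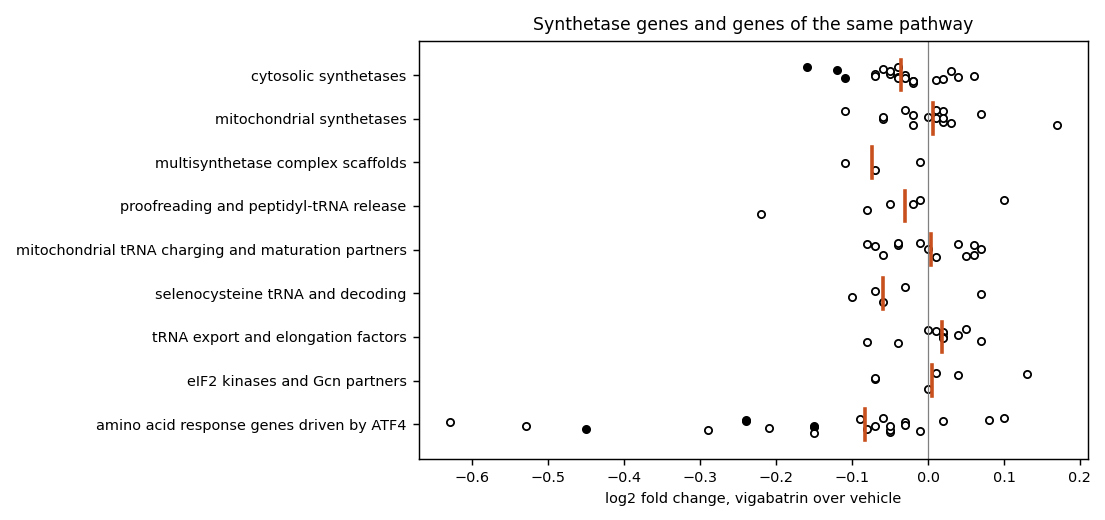
Log2 fold change of vigabatrin over vehicle for each synthetase gene and each gene of the listed pathway groups (points), with the median of each group (bars) and filled points for an unadjusted p under 0.05. The medians run from -0.083 for the amino acid response genes to 0.018 for the export and elongation factors, beside -0.036 for cytosolic and 0.006 for mitochondrial synthetase genes.

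Differences between single libraries were as large as those between groups. The mean deviation of the cytosolic genes from their own average, on the log2 scale, was -0.022, -0.020, 0.007, -0.016 and -0.036 in the vigabatrin libraries and 0.068, -0.067, 0.058, -0.006 and 0.034 in the vehicle libraries. Thus both the highest and the lowest library were vehicle libraries, 832 and 835. For the mitochondrial genes the deviations were -0.061, 0.004, 0.010, 0.062 and -0.002 after vigabatrin and 0.016, -0.051, 0.023, -0.016 and 0.014 in vehicle, with both extremes among the vigabatrin libraries, 2344 and 2428. Vehicle 835 was the lowest of its group for 19 of the 36 genes, and vigabatrin 2344 for 17. Both are among the 4 libraries rich in lens transcripts. Vehicle 1582 and vigabatrin 2429, which are also rich in them, were lowest of their groups for 7 and 6 genes. These counts were not taken over all genes, and the part of lens tissue in these levels was not tested. The spread within a group was larger in vehicle than after vigabatrin for 28 of the 36 genes. The same share over all genes was not taken, so this is not read as particular to the synthetase genes.

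**Figure D5:**
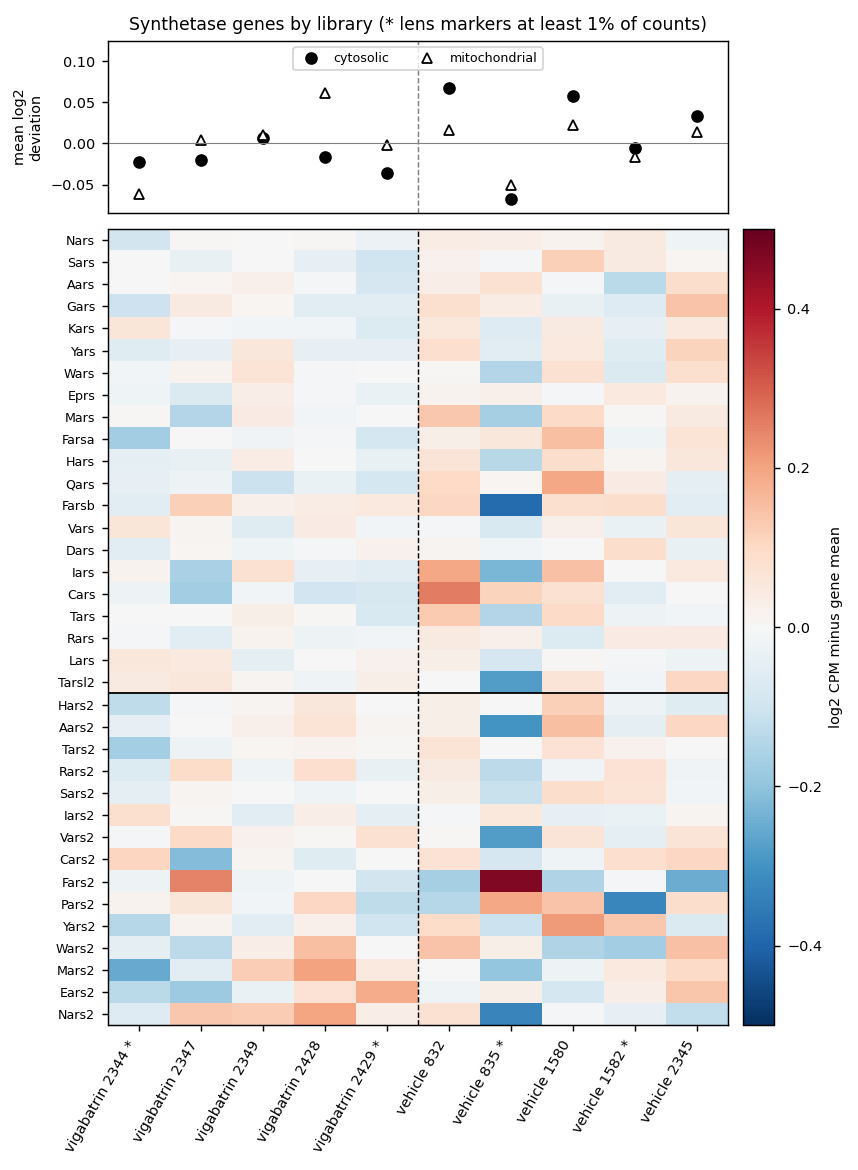
Lower panel: log2 CPM minus the mean of the gene in each vigabatrin library (left of the dashed line) and vehicle library (right), with cytosolic genes above the horizontal line and mitochondrial genes below it, and stars on libraries whose lens markers took at least 1% of counts. Upper panel: the mean deviation of the cytosolic genes (circles), which runs from -0.067 in vehicle 835 to 0.068 in vehicle 832, and of the mitochondrial genes (triangles), which runs from -0.061 in vigabatrin 2344 to 0.062 in vigabatrin 2428.

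Leaving out libraries moved several genes. Without vehicle 835, 20 of 21 cytosolic genes were lower, and Cars, Farsa, Iars, Qars and Sars had an unadjusted p under 0.05, with a smallest adjusted p of 0.437 (edgeR). Over all genes in that fit 49.4% were lower, 5.13% were lower at an unadjusted p under 0.05 and 4.4% were higher at that level. Iars, the isoleucine enzyme of the complex, had 80.9, 71.5, 84.3, 77.6 and 77.1 CPM after vigabatrin and 91.5, 68.2, 88.6, 79.8 and 82.8 CPM in vehicle, where vehicle 835 was the lowest of all. Its log2 fold change was -0.07 with all libraries and -0.13 without vehicle 835. Without the 4 lens-rich libraries 19 of 21 cytosolic genes were lower, where 49.4% of all genes were, and Iars had -0.172 and Mars, the methionine enzyme of the complex, -0.129. Mars had 84.2, 75.8, 86.4, 83.0 and 83.9 CPM after vigabatrin and 92.0, 74.9, 89.7, 84.2 and 86.6 CPM in vehicle, with vigabatrin 2347 and vehicle 835 lowest. Fars2 had 9.86, 11.9, 9.87, 10.0 and 9.42 CPM after vigabatrin and 8.93, 13.8, 9.04, 9.98 and 8.45 CPM in vehicle. Here vehicle 835 was the highest library, and the log2 fold change of Fars2 was 0.02 with all libraries and 0.266 without the lens-rich ones (smallest adjusted p of any synthetase gene there 0.617, edgeR). The title number term leaves vehicle 2345 as the only vehicle library set against the vigabatrin libraries. With that term Gars had a log2 fold change of -0.175, against -0.06 without it. Under all 20 alternative settings 0 synthetase genes passed the threshold, and the smallest adjusted p was 0.269 (edgeR), for Qars without vehicle 2345. In that fit the drug groups and the title number ranges are the same split and cannot be told apart. Over all genes there, 5.94% were lower and 5.27% higher at an unadjusted p under 0.05.

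Some reads in exons shared with a neighbouring gene may have been counted for either gene or dropped. The strand setting of the counting is not given in the sources used here. In GENCODE M21, exons of 14 of the 36 genes overlap those of another gene, and for 11 that gene was itself tested. The largest overlap with a tested gene was that of Iars2, the mitochondrial isoleucine enzyme, which shares 22.9% of its exon bases with Rab3gap2 on the opposite strand. Fars2 shares 8.7% with Nrn1, Farsb 9.5% with Sgpp2, and Hars 8.0% with Hars2, all on the opposite strand, so these levels are uncertain. Mars and Ddit3, an ATF4 target itself, lie on opposite strands and share 2.0% of the exon bases of Mars. Aars shares 14.3% with Exosc6 on the same strand, a gene that was not tested.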

How the data were processed

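The labels' protocols give flash-frozen retinas, Qiazol extraction and standard Illumina libraries. The authors deposited raw counts of reads for each gene, counted with HTSeq 0.6.1 on mm10 (per the submitters' processing notes, where DESeq2 and edgeR 3.16.5 appear too). The aligner, annotation release, RNA selection and strand setting were not given in the sources used here. The table's 1 count column without a matching sample was not used.

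After filterByExpr and TMM scaling, edgeR 4.0.16 on R 4.3.3 fitted group as the only term (quasi-likelihood, glmQLFit and glmQLFTest). P-values were adjusted over 17435 genes by Benjamini-Hochberg, with 0.05 as the threshold. A standard error is the log2 fold change's size over the square root of F. CPM of genes and sums over synthetase genes use TMM library sizes, and log2 CPM add a prior count of 2. Sums over marker lists use the total counts of each library without TMM scaling. The common biological coefficient of variation was 0.191. Within a group, any pair of libraries differed by more than counting error (chi-square over its degrees of freedom 8.46 to 141). None was therefore taken as a repeat run of the same library. These values cannot tell separate preparations of the same animal from different animals. The test was tried on simulated counts.

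Alternatives were other scalings, filters, DESeq2 1.42.0, limma-voom with quality weights (limma 3.58.1), leaving out each library or the 4 with lens markers of at least 1% of counts, and terms for lens and pigment epithelium or title number range. Transcript length was added after seeing the data. Members and lists were chosen with earlier results of these data known. Values in every library are given for the 8 genes of smallest p, the 3 highest and 3 lowest levels of each compartment, and genes that an alternative moved across an unadjusted p of 0.05.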

Additional observations from a re-analysis of the deposited data

Results flagged for a closer look

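In 76 groups of 5 libraries, 2 for each synthetase gene and for the mean deviation of each compartment, 5 had 1 library far from the rest by Dixon's test, where chance gives about 1 in 20 groups, or 3.8. Fars2 had 11.9 CPM in vigabatrin 2347, against 9.42 to 10.0 CPM in the other vigabatrin libraries, and 13.8 CPM in vehicle 835, against 8.45 to 9.98 CPM in the other vehicle libraries. Tars2 had 39.8 CPM in vigabatrin 2344 and 44.1 to 45.4 CPM in the rest of that group. Yars had 91.5 CPM in vigabatrin 2349 and 84.3 to 85.6 CPM in the rest. Rars had 31.1 CPM in vehicle 1580 and 33.2 to 33.7 CPM in the other vehicle libraries. Vigabatrin 2344 and vehicle 835 are rich in lens transcripts, and vigabatrin 2347, vigabatrin 2349 and vehicle 1580 are not.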

How the results depend on the processing

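Under all 20 alternatives 0 synthetase genes passed the threshold. Over all genes, 1 was called higher and 0 lower; DESeq2 called 37 higher and 50 lower, limma-voom 3 higher, and library size only, no filter, the lens and pigment epithelium terms, the title number range and the fit without lens-rich libraries 0 higher. Leaving out 1 library gave 0 to 13 higher and 0 to 26 lower, with both highest counts without vehicle 2345. Without that library the drug groups and the title number ranges are the same split and cannot be told apart. The log2 ratio of Tars2 to Tars was 0.79 with transcript length. The direction of 16 genes held under every alternative, Cars, Qars, Farsa, Sars and Nars2 among them, and 20 genes, none with a log2 fold change above 0.11 in size, reversed under at least 1. A term for the title numbers leaves only vehicle 2345 set against the vigabatrin libraries. It gave these reversed log2 fold changes: Aars2 -0.091, Dars 0.028, Hars2 0.052, Iars2 -0.01, Mars2 -0.072, Nars 0, Pars2 -0.078, Sars2 0.004, Tars 0.006, Tarsl2 -0.079, Vars -0.051, Vars2 -0.023, Wars -0.067 and Yars2 0.022. Without the lens-rich libraries they were Aars2 -0.064, Dars 0.001, Lars -0.002, Tarsl2 -0.039, Vars -0.027, Vars2 -0.002 and Wars -0.028. Limma-voom gave Aars2 -0.02, Ears2 0.013, Farsb -0.009, Rars2 -0.005, Tarsl2 0, Vars 0, Wars 0 and Wars2 0.017. The lens and pigment epithelium terms gave Aars2 -0.012 and Mars2 -0.02, and Wars2 had 0.008 with library size only and 0.011 with the upper quartile. Leaving out 1 library reversed Aars2 (range -0.048 to 0.058), Pars2 (-0.07 to 0.058), Wars2 (-0.048 to 0.035), Hars2 (-0.044 to 0.003), Tarsl2 (-0.014 to 0.075), Wars (-0.011 to 0.043), Farsb (-0.02 to 0.088), Tars (-0.057 to 0.007), Fars2 (-0.038 to 0.166), Iars2 (-0.012 to 0.022), Rars2 (-0.011 to 0.038), Vars (-0.003 to 0.03), Mars2 (-0.013 to 0.096) and Ears2 (-0.088 to 0.009). In the amino acid response list, to which the alternatives were applied after its values were seen, the median became 0.046 with the title number term, and Slc7a1 had 0.005 without the lens-rich libraries. The causes were not tested. No paired analysis was possible because the groups share no replicate numbers.

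With 5 libraries a group the standard error of a synthetase gene ran from 0.03 to 0.13 on the log2 scale, and the lowest count of any of them in a library was 207. Intervals cover the spread between these libraries only.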
